A study of Homo sapiens with 18 samples.

Results

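HaCaT and TIGK keratinocytes were compared 24 h after a scratch, over all genes with enough reads to test. HaCaT is an immortal keratinocyte line from human skin, and TIGK is a keratinocyte line from human gingiva, the gum, immortalised with telomerase. The comparison rests on 3 HaCaT and 3 TIGK libraries of bulk RNA, 6 of the 18 in the series, taken by the line and the time in their labels. Cells of both lines had been scratched as confluent sheets and harvested 24 h later. The other 12 libraries are both lines before scratching (0 h) and 6 h after it, 3 libraries each, and they serve here to show whether a difference at 24 h was present at 0 h. Each tissue is represented by 1 line, so tissue, donor and way of immortalisation cannot be told apart. No culture without a scratch was harvested at 24 h, so a change since 0 h joins the scratch with time in culture. The labels do not say that the 3 libraries of a group came from separate cultures, so every p-value here measures only how far these libraries scatter, and that scatter may be technical.

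A scratch wound in a keratinocyte sheet is closed by cells at the edge that loosen from their neighbours, lay down matrix, migrate over it and divide behind the front. Ligands of the EGF receptor, cytokines of the interleukin and TNF families and the ERK and NF-kB pathways drive this activated state. Keratinocytes also carry RNA sensors and respond to type I and type III interferons by inducing a broad set of antiviral genes. Skin and gingiva differ in the keratins and barrier proteins their upper layers make, skin being cornified throughout.

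The 24 h libraries held 14238090 to 15232613 reads assigned to genes in HaCaT and 14763305 to 15367733 in TIGK. Some TIGK libraries stood apart from the others of their group. At 24 h, TIGK library C differed from A and B by a chi-square per degree of freedom over genes of 21.9 and 16.2, against 8.12 between A and B and 3.85 to 8.09 among the HaCaT libraries. Library C of TIGK at 0 h held 25011331 reads over 26246 genes with a count, against 16199912 and 17264601 reads over 22435 and 22799 genes in A and B, and at 6 h library C held 25161 such genes against 22147 and 21978. Counts of called genes without these libraries are given below. Levels are given in CPM, the reads of a gene scaled to a common library size, as the 3 libraries in the order of their column letters or as mean ± SD over the 3 libraries of a group. The 9 keratinocyte markers, among them KRT5, KRT14 and TP63, summed to 38510 to 42200 CPM in HaCaT and to 37970 to 42410 CPM in TIGK. KRT5 alone had a mean of 18210 CPM in HaCaT and 22950 in TIGK. Both lines thus expressed keratinocyte markers, and the sum does not tell skin from gingiva. The summed level of 8 fibroblast markers was 37.7 to 40.5 CPM in HaCaT and 397 to 439 CPM in TIGK. All 6 fibroblast markers with enough reads to test were lower in HaCaT, against 33.1% of all tested genes. Their median log2 difference, HaCaT minus TIGK, was -4.47. The markers with too few reads were THY1, with 0 counts in both lines, and PDGFRA, with 0 in HaCaT and 1 in TIGK. The part of fibroblasts in the matrix values below was not tested. Markers of immune cells summed to 3.75 to 4.96 and 3.72 to 4.72 CPM. In bulk RNA, fewer cells that make a transcript and less of it per cell cannot be told apart.

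Of 17409 genes tested, 10734 differed between the lines at 24 h (61.7%), 4974 being higher in HaCaT (28.6%) and 5760 lower (33.1%). A gene is called when its adjusted p in edgeR's quasi-likelihood test is under 0.05, and every gene described below as higher or lower was called unless its adjusted p is given as missing that threshold. Gene positions are those of the deposited table, on hg38, and span the whole gene. Differences are log2 values of HaCaT minus TIGK, so a negative value means a lower level in HaCaT. The median over all tested genes was -0.05. A difference of at least 2-fold was called for 5207 genes (29.9%), 2325 of them higher and 2882 lower in HaCaT, and one of at least 8-fold for 1567, 498 higher and 1069 lower. The line difference itself changed between 0 h and 24 h for 2354 genes (13.5%), toward HaCaT for 1231 (7.07%) and toward TIGK for 1123 (6.45%). With library totals in place of TMM scaling that split was 1637 toward HaCaT and 756 toward TIGK. Without TIGK library C of 24 h, 10264 genes differed at 24 h and 2277 differences had changed since 0 h, and without library C of TIGK at 0 h and 6 h the counts were 10930 and 2373. Against 6 h it changed for 3053 (17.5%). With 61.7% of all genes called, a list in which most members differ is close to the background, and the direction of the calls is what separates the lists below.

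**Figure D1:**
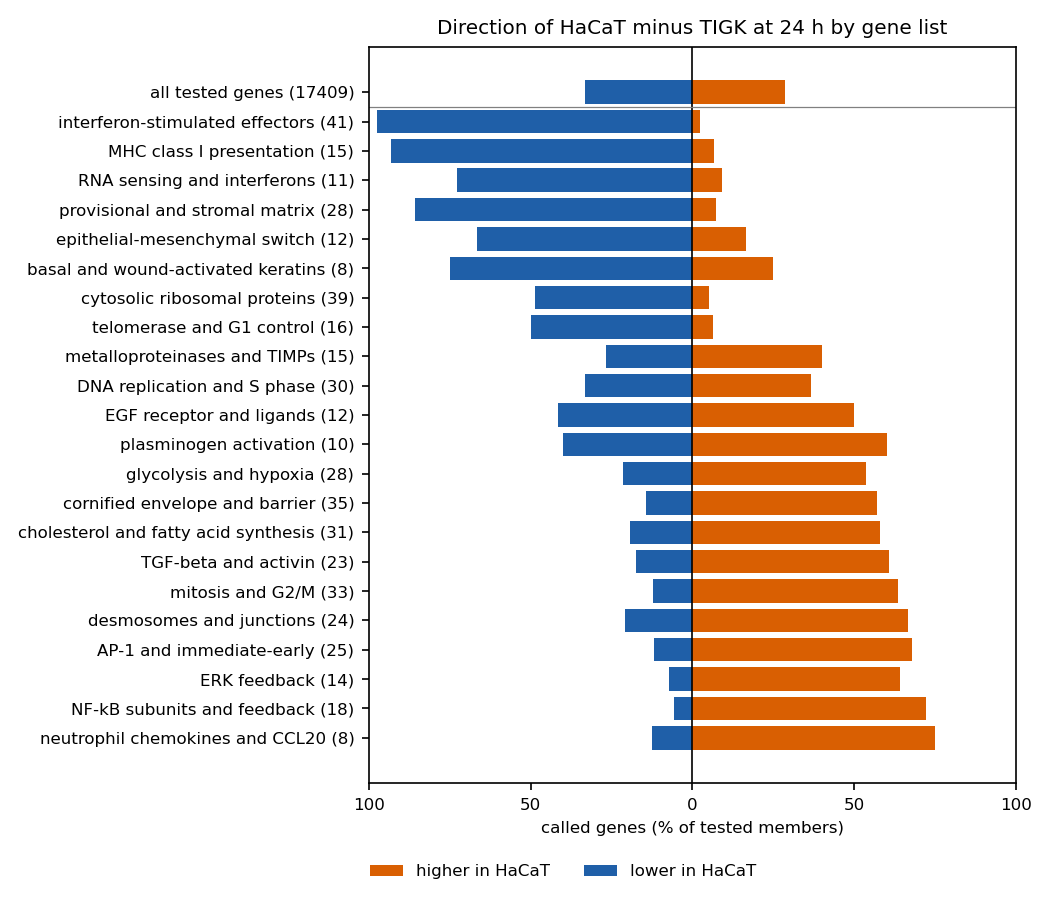
Share of the tested members of 22 gene lists that were higher (right, orange) or lower (left, blue) in HaCaT than in TIGK at 24 h, in percent of the members tested, with the number tested beside each name. The top bar is all 17409 tested genes, of which 28.6% were higher and 33.1% lower. Antiviral effectors, stromal matrix and class I presentation lie almost wholly to the left, and ERK feedback, NF-kB and chemokine genes mostly to the right.

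The antiviral interferon programme was lower in HaCaT almost throughout. Of 42 effectors listed, 41 were tested, 40 were lower in HaCaT and 1 was higher, with a median log2 difference of -3.96. The promoters of 4 of these effectors are printed first, because the interferon-stimulated response element is the sequence through which type I and type III interferons act on their target genes. They run from 250 bases before to 50 bases after the RefSeq start site on GRCh38.p14, 5′ to 3′ on the gene's strand, and capitals mark each match to the core GAAANNGAAA on either strand, with overlapping matches joined.
ISG15 (chr1:1013247-1013546, plus strand): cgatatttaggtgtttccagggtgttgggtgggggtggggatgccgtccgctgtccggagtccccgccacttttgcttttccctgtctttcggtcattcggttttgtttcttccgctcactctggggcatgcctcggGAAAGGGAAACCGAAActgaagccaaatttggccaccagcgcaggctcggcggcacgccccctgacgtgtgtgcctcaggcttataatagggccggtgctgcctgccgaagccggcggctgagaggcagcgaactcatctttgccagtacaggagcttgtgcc
IFI6 (chr1:27672143-27672442, minus strand): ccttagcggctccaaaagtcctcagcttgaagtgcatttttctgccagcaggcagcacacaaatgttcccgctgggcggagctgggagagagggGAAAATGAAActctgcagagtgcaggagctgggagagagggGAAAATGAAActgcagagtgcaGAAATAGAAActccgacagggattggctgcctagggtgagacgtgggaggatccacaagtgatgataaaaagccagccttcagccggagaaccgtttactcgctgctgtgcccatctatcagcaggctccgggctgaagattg
IFIT1 (chr10:89392373-89392672, plus strand): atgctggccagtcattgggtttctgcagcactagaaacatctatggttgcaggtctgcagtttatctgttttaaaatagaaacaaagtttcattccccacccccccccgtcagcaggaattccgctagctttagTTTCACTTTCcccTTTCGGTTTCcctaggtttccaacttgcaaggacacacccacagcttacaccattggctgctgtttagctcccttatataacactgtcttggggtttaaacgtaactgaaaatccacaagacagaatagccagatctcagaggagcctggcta
BST2 (chr19:17405581-17405880, minus strand): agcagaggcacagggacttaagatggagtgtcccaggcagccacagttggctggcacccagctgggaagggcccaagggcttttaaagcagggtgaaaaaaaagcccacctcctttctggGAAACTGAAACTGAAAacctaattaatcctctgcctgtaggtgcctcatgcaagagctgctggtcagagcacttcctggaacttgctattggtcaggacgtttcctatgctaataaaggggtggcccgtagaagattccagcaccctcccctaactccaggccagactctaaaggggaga
The core was present in 23 of the 34 effector promoters that matched a RefSeq entry by symbol (67.6%) and in 996 of all 27305 promoters of that length (3.65%). A match describes these letters and is not evidence of binding in either line.

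BST2, which tethers budding virus particles, stood at 0.445, 1.02 and 0.718 CPM in the 3 HaCaT libraries and at 741, 653 and 933 in the 3 TIGK libraries, a 1063-fold lower level in HaCaT (log2 -10.05 ± 0.23 SE, adjusted p = 6.39e-21). IFI6, which protects infected cells from death, stood at 4.83, 2.86 and 6.198 CPM in HaCaT and 1373, 1242 and 1767 in TIGK (log2 -8.29 ± 0.25, adjusted p = 8.68e-19). ISG15, a ubiquitin-like modifier, stood at 20.4, 20.1 and 17.6 and 953, 796 and 1296 CPM (log2 -5.71 ± 0.18, adjusted p = 1.70e-18). In all 3 genes every TIGK library lay far above every HaCaT library, and over all tested genes the libraries of the lines did not overlap for 64.3%. MX2, a GTPase that blocks nuclear import of viral genomes, was 1002-fold lower at 0.239 ± 0.06801 against 249 ± 35.3 CPM, and its relative MX1 was 204-fold lower. The 2 HaCaT reads of IFI44L allow no fold, its TIGK level being 203 ± 18.95 CPM. At the other end of the list, IFI16, a nuclear DNA sensor, was 1.65-fold lower and UBA7, the enzyme that activates ISG15, 2.24-fold lower. The exception was IFITM2, a membrane protein that hinders virus entry, at 66.5, 55.4 and 68.1 CPM in HaCaT and 1.83, 1.96 and 3.08 in TIGK, 27.7-fold higher in HaCaT. Its neighbours IFITM1 and IFITM3 were 4.17-fold and 4.66-fold lower, and since these 3 copies are nearly identical and IFITM1 and IFITM2 overlap in the annotation, how their reads were shared out is uncertain.

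Upstream of the effectors, most tested sensors were also lower in HaCaT. DDX58, the RNA sensor RIG-I, stood at 9.98, 8.798 and 11.5 CPM in HaCaT and 268, 231 and 251 in TIGK, 24.8-fold lower in HaCaT. The double-stranded RNA sensor IFIH1 was 15.4-fold lower, the DNA sensor CGAS 4.71-fold, the endosomal receptor TLR3 2.68-fold and the inducible transcription factor IRF7 9.52-fold. MAVS, the adaptor through which RIG-I signals, was 1.21-fold higher in HaCaT, a call lost when TIGK library B (adjusted p = 0.0537), TIGK library C (0.164) or HaCaT library B (0.14) was left out. Among the interferons themselves, IFNL1 had 0 counts in the 3 HaCaT libraries and 0.786, 0.914 and 1.44 CPM in TIGK, a level at least 5.31-fold lower in HaCaT against a floor of 3 counts per library, which DESeq2 did not call (adjusted p = 0.275). IFNE, the other interferon with enough reads to test, did not pass the threshold (log2 0.68, adjusted p = 0.238). Of 11 genes tested on this list, 8 were lower and 1 higher, and 4 listed genes had too few reads.

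STAT2 (chromosome 12, 56341597 to 56360155), which carries the signal of type I and type III interferons to the nucleus, stood at 40.4, 41.9 and 44.95 CPM in HaCaT and 282, 215 and 239.6 in TIGK, 5.79-fold lower in HaCaT, and the feedback inhibitors USP18 and SOCS1 were 14.3-fold and 9.15-fold lower. Among the receptor chains, IFNLR1, specific to type III interferon, was 1.61-fold lower and IFNGR1 1.63-fold higher in HaCaT. Of 17 tested genes on the list of receptors and STATs, 11 were lower and 2 higher, with a median of -0.30. Class I antigen presentation had 14 of 15 members lower and 1 higher, at a median of -0.81. HLA-B was 8.39-fold lower at 36.6 ± 2.07 against 307 ± 41.3 CPM, B2M, the light chain of all class I molecules, 1.76-fold lower, and NLRC5, the transactivator of the class I genes, 2.204-fold lower. The peptidase ERAP2 was the member higher in HaCaT, by 1.67-fold, which did not pass without TIGK library C (adjusted p = 0.0538) or HaCaT library A (0.0534). HLA genes are highly polymorphic and similar to each other, so their counts depend on how reads were assigned.

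Part of this gap had opened since 0 h. The line difference moved toward TIGK for 30 of the 41 effectors and toward HaCaT for 0, and the list's median went from -2.23 at 0 h to -3.96 at 24 h. ISG15 had been at 18.02 ± 1.23 CPM in HaCaT and 116 ± 8.72 in TIGK at 0 h, so HaCaT was near its starting level and TIGK had risen, a change in the difference of -3.03 ± 0.23 (adjusted p = 2.09e-09). The changes for IFI6, IFIT1 and DDX58 were -2.62, -2.51 and -2.53. For BST2 the difference at 0 h was already -9.93, and the change of -0.13 ± 0.73 SE did not pass the test (adjusted p = 0.952) but did with limma on log2(FPKM + 1) (-0.94, adjusted p = 0.0106). Its HaCaT levels, 0.316 ± 0.194 CPM at 0 h, are too low to measure that change well, while in TIGK it went from 313 ± 39.9 to 776 ± 143 CPM. For class I presentation 7 of 15 differences moved toward TIGK and 0 toward HaCaT.

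**Figure D2:**
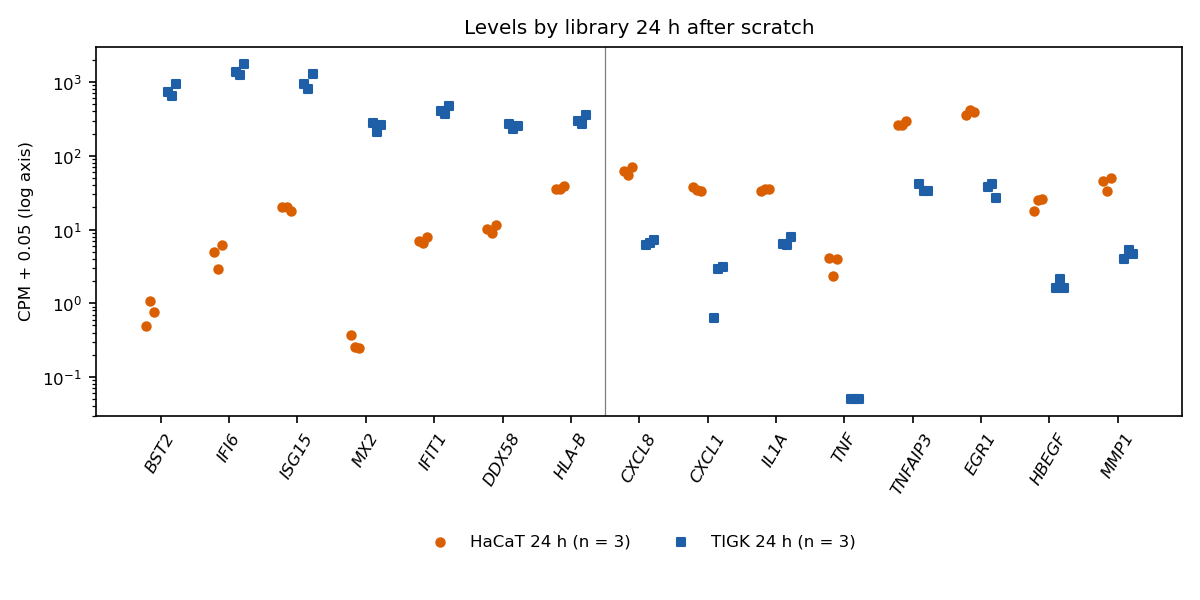
Level of 15 genes in each of the 3 HaCaT (orange circles) and 3 TIGK (blue squares) libraries at 24 h, in CPM on a log axis with 0.05 added so that libraries at 0 can be drawn. The antiviral genes on the left lie higher in TIGK, and the cytokine, early-response and protease genes on the right lie higher in HaCaT. Only genes without overlap of libraries between the lines were drawn, which held for 64.3% of all tested genes.

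Inflammatory signalling ran the other way. Of 18 tested subunits and feedback targets of NF-kB, 13 were higher in HaCaT and 1 lower, with a median of 0.77. Among 8 tested chemokines of 10 listed, 6 were higher and 1 lower, with a median of 2.46. The promoters of a chemokine and of a feedback inhibitor are shown with their matches to the NF-kB site in capitals, both strands searched and overlapping matches joined.
CXCL1 (chr4:73869143-73869442, plus strand): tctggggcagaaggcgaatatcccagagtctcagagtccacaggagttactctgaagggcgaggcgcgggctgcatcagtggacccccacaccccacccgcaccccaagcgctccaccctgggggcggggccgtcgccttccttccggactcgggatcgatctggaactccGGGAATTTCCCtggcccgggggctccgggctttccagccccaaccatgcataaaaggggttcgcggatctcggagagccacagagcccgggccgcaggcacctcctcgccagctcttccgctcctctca
TNFAIP3 (chr6:137867009-137867308, plus strand): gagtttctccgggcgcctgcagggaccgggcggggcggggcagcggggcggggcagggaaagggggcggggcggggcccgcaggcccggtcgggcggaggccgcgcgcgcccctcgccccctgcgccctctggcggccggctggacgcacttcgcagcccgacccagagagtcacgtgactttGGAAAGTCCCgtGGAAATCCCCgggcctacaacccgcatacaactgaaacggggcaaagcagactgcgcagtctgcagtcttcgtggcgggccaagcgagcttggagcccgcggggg
The site was present in 12 of 23 matched promoters of the 2 lists (52.2%) and in 1562 of 27305 promoters overall (5.72%), and as above a match is only a description of the sequence.

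Among the ligands, IL1A (chromosome 2, 112773915 to 112784590), an alarm cytokine stored in keratinocytes, stood at 32.98, 35.1 and 35.6 CPM in HaCaT and 6.22, 6.07 and 7.796 in TIGK, 5.16-fold higher in HaCaT (log2 2.37 ± 0.18 SE, adjusted p = 3.16e-11). IL1B was 3.23-fold higher, and IL1RN, the natural antagonist of both, 1.45-fold higher. TNF had 4.003, 2.32 and 3.98 CPM in HaCaT and 0 counts in the 3 TIGK libraries, at least 17.2-fold higher. LIF and IL11, both ligands of receptors that share gp130, were 2.54-fold and 3.697-fold higher. The whole list of 21 tested interleukin and TNF family genes was mixed, with 9 higher and 6 lower. On the lower side were receptors, IL1R1, the signalling receptor for both interleukins of that family, at 7.98-fold and its decoy IL1R2 at 0.133 ± 0.0706 against 1.495 ± 0.789 CPM, and IL36RN, an antagonist, at 8.15-fold.

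CXCL8 (chromosome 4, 73740506 to 73743716), the main human neutrophil attractant, stood at 61.1, 54.7 and 69.9 CPM in HaCaT and 6.16, 6.596 and 7.25 in TIGK, 9.28-fold higher (log2 3.22 ± 0.21, adjusted p = 2.14e-12). CXCL1 stood at 37.7, 33.96 and 33.6 and 0.589, 2.87 and 3.08 CPM, 16.1-fold higher, and CCL20, which attracts dendritic and Th17 cells, was 7.62-fold higher. CXCL6 had 0 counts in TIGK and was at least 7.604-fold higher. HaCaT libraries stood above TIGK libraries for each of these. CXCL2 did not pass the test (log2 0.85, adjusted p = 0.0877) but did without TIGK library A (log2 1.43, adjusted p = 0.0123) and with limma on log2(FPKM + 1) and log2(FPKM + 0.1) (adjusted p = 0.03095 and 0.0379), and CXCL1, CXCL2 and CXCL3 are similar enough that reads may be shared out between them. CXCL14, a chemokine made by resting epithelium, was the member lower in HaCaT, by 1.398-fold, a call lost without TIGK library C (adjusted p = 0.0698) or HaCaT library B (0.0634). TNFAIP3, the deubiquitinase that restrains NF-kB, stood at 261, 265 and 295 and 40.99, 33.2 and 33.6 CPM, 7.61-fold higher. Of the NF-kB subunits, RELB and NFKB2 were 7.76-fold and 4.58-fold higher. RELA (log2 -0.03, adjusted p = 0.796) and NFKB1 (log2 0.04, adjusted p = 0.703) did not pass the test. ICAM1, the adhesion ligand of leukocytes, was the target lower in HaCaT, by 3.03-fold.

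The line difference moved toward HaCaT for 10 of 18 NF-kB genes and for 5 of 8 chemokines, and toward TIGK for 0 and 1 (0 and 0 without TIGK library C of 0 h or of 24 h). CXCL8 had been lower in HaCaT at 0 h, at 2.09 ± 0.953 against 3.95 ± 0.888 CPM, so its difference turned by 4.12 ± 0.34 (adjusted p = 6.75e-09). IL1A moved by 3.04, IL1B by 2.68 and TNFAIP3 by 2.42. ICAM1 was still lower at 24 h, but its difference moved toward HaCaT by 2.02.

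**Figure D3:**
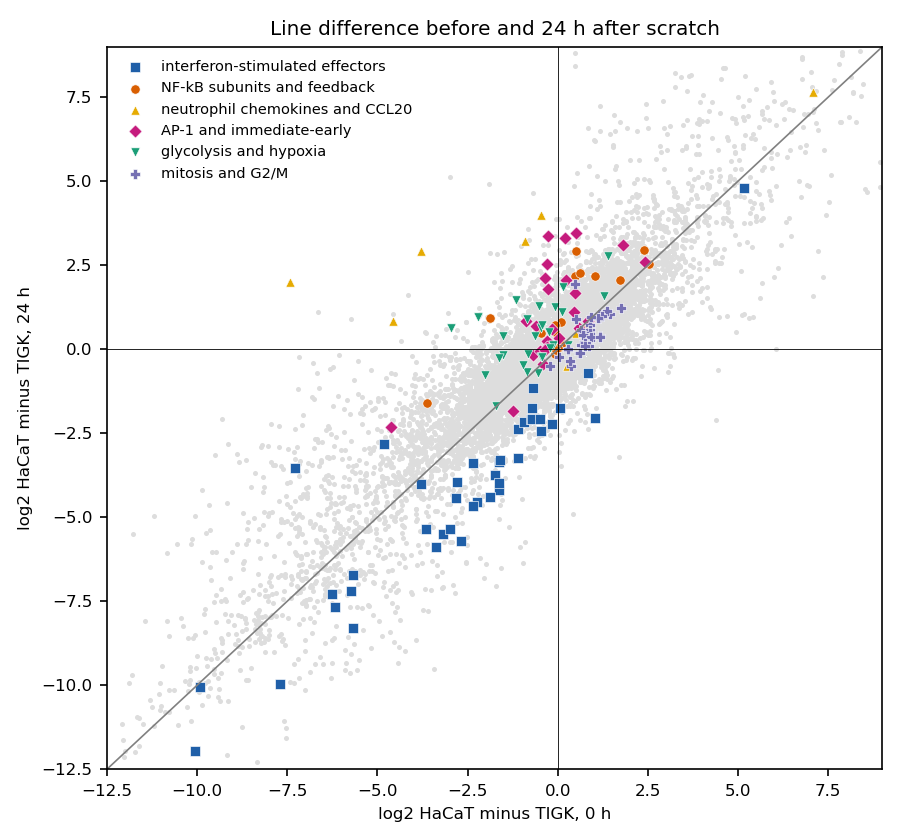
Log2 difference HaCaT minus TIGK at 0 h (x axis) and at 24 h (y axis) for the tested members of 6 lists, 1 point per gene, with the line of equal differences in grey and all tested genes as light grey points. Below the grey line lie 39 antiviral effectors and 30 G2/M genes, and above it lie 16 NF-kB, 6 chemokine, 22 early-response and 25 glycolysis genes. The axes leave out 44 of the grey points.

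Genes of the EGF receptor and ERK pathway are given from the ligands down. Of 12 receptor and ligand genes, 6 were higher in HaCaT and 5 lower, or 3 lower without HaCaT library A. HBEGF, a membrane-shed ligand released at wound edges, stood at 18.1, 24.7 and 25.97 CPM in HaCaT and 1.57, 2.09 and 1.57 in TIGK, 13.1-fold higher. TGFA was 2.57-fold higher, but the ligands EPGN and AREG were 4.02-fold and 1.89-fold lower. The receptor EGFR was 1.48-fold higher at 1600 ± 42.9 against 1084 ± 180.4 CPM, and its feedback inhibitor ERRFI1 1.38-fold higher. Genes that feed back on ERK had 9 of 14 members higher and 1 lower, with a median of 0.75, and 9 of them had moved toward HaCaT since 0 h and 0 toward TIGK. DUSP6, the phosphatase specific for ERK, stood at 117, 109.8 and 119 CPM in HaCaT and 15.2, 17.3 and 20.1 in TIGK, 6.57-fold higher, and SPRY4, an inhibitor upstream of RAS, was 1.69-fold higher. DUSP1 was the lower member, by 3.37-fold.

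Of 25 immediate-early genes, 17 were higher in HaCaT and 3 lower, with a median of 0.83, and 12 had moved toward HaCaT since 0 h. EGR1, a zinc-finger factor induced within minutes of stimulation, stood at 353, 416 and 392 CPM in HaCaT and 37.9, 41.4 and 26.6 in TIGK, 10.95-fold higher (log2 3.45 ± 0.14 SE, adjusted p = 3.35e-16). At 0 h the levels had been 41.3 ± 4.48 and 28.98 ± 5.45 CPM, and the difference moved by 2.94 ± 0.20. FOS was 4.36-fold higher at 96.01 ± 5.54 against 22.02 ± 4.803 CPM, EGR3 9.92-fold and the orphan receptor NR4A1 5.802-fold. FOSL1, the AP-1 member tied to migrating keratinocytes, was 6.04-fold higher, a difference already present at 0 h (log2 2.43). JUN, the AP-1 partner of FOS and FOSL1, did not pass the test (log2 0.06, adjusted p = 0.691), and MYC was 1.35-fold lower. The EGR1 promoter is shown because it holds the serum response element, with matches to the CArG box on either strand in capitals.
EGR1 (chr5:138465229-138465528, plus strand): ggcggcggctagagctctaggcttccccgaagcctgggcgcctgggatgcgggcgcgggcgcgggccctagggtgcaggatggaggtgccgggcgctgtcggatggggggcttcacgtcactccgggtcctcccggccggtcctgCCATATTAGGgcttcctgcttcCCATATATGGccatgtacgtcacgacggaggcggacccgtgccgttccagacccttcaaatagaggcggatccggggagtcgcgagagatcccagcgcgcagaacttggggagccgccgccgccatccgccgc
The CArG box was present in 2 of 17 matched promoters of the immediate-early list (11.8%) and in 351 of 27305 promoters overall (1.29%).

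Genes of attachment to the basement membrane leaned to HaCaT. Laminin-332 and the hemidesmosome, which anchor basal keratinocytes to the basement membrane, had 7 of 9 genes higher in HaCaT and 1 lower. LAMB3 (chromosome 1, 209614870 to 209652466), the beta chain, stood at 1988, 2038 and 1961 CPM in HaCaT and 705, 663 and 670.3 in TIGK, 2.94-fold higher, while the alpha chain LAMA3 was 1.296-fold higher. COL17A1 and the integrin chains ITGA6 and ITGB4 were 1.596-fold, 1.96-fold and 1.37-fold higher, and the linker PLEC 1.84-fold lower. These differences were narrower than at 0 h, with 6 of 9 moved toward TIGK and the median going from 1.26 to 0.47. LAMA3 changed most of these, by -1.42 (adjusted p = 1.96e-09).

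Genes of the provisional and stromal matrix were mostly lower in HaCaT. Of 31 members, 28 were tested, 24 were lower in HaCaT and 2 higher, with a median of -1.98. FN1 (chromosome 2, 215360440 to 215436172), the fibronectin that fills a fresh wound bed, stood at 245, 257 and 232 CPM in HaCaT and 1689, 1699 and 1312 in TIGK, 6.401-fold lower (log2 -2.68 ± 0.09 SE, adjusted p = 3.17e-18). FBLN2, an elastic-fibre protein, stood at 0.127, 0.614 and 0.131 and 204, 188 and 212 CPM, 689-fold lower, and the proteoglycan DCN was 372-fold lower at 0.612 ± 0.0927 against 230.4 ± 23.6 CPM. COL6A2 was 372-fold lower, SPARC 8.17-fold, LOX, the collagen cross-linking oxidase, 16.7-fold and TGFBI 3.06-fold. The higher members were TNC, a matrix protein of wound edges, at 79.4, 69.8 and 75.7 and 13.8, 10.5 and 8.96 CPM and 6.76-fold higher, and THBS1, 1.44-fold higher. COL7A1, the anchoring fibril collagen, did not pass the test (log2 0.02, adjusted p = 0.823). The fibroblast marker sum moved with this list, and DCN and COL1A1 stand in both, so neither is independent of the other. At 0 h the median of the list had been -1.94.

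Of 9 tested integrins of migrating cells, 4 were higher and 2 lower in HaCaT. ITGA2, the collagen-binding chain, stood at 133, 135 and 122 CPM in HaCaT and 17.9, 19.5 and 20.7 in TIGK, 6.696-fold higher, and ITGB5 was 8.46-fold higher. ITGA5, the fibronectin-binding chain, was 2.001-fold lower, in the same direction as FN1. ITGB6, whose heterodimer activates latent TGF-beta, did not pass the test at 24 h (log2 0.19, adjusted p = 0.113, but 0.0376 without TMM scaling), while its line difference had moved toward TIGK by -1.36 since 0 h. 

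Metalloproteinases and their inhibitors differed in both directions. In all, 6 of 15 tested members of this list were higher and 4 lower, against 28.6% and 33.1% of all genes. MMP1 (chromosome 11, 102789920 to 102798160), the interstitial collagenase that migrating keratinocytes make, stood at 46.1, 33.5 and 50.3 CPM in HaCaT and 3.93, 5.29 and 4.65 in TIGK, 9.36-fold higher. MMP13 and the gelatinase MMP2 were 8.85-fold and 9.54-fold higher, and MMP10, a stromelysin of the wound edge, 5.96-fold. TIMP3, the inhibitor bound to matrix, stood at 58.7, 56.4 and 60.2 and 676, 565 and 579 CPM, 10.4-fold lower, and TIMP2 was 3.801-fold lower. MMP14 was 1.33-fold lower, and MMP9 did not pass the test (log2 -0.23, adjusted p = 0.481).

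In the plasminogen system, 6 of 10 tested genes were higher and 4 lower. SERPINB2, an inhibitor of urokinase, stood at 109, 89.7 and 116 CPM in HaCaT and 1.83, 2.09 and 1.37 in TIGK, 58.97-fold higher. Urokinase itself, PLAU, was 2.67-fold higher, its receptor PLAUR 4.77-fold and tissue factor, F3, 3.28-fold, whereas tissue-type activator PLAT was 3.02-fold lower. Enzymes of hyaluronan, a swelling polysaccharide of wounded epithelium, had 5 of 7 members higher and 1 lower, the latter lost without TIGK library B or HaCaT library A or C. The synthase HAS3 stood at 266, 259.8 and 289 and 36.2, 37.03 and 41.99 CPM, 7.07-fold higher, and the hyaluronidase HYAL1 was 56.96-fold higher at 16.8 ± 1.33 against 0.287 ± 0.271 CPM.

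**Figure D4:**
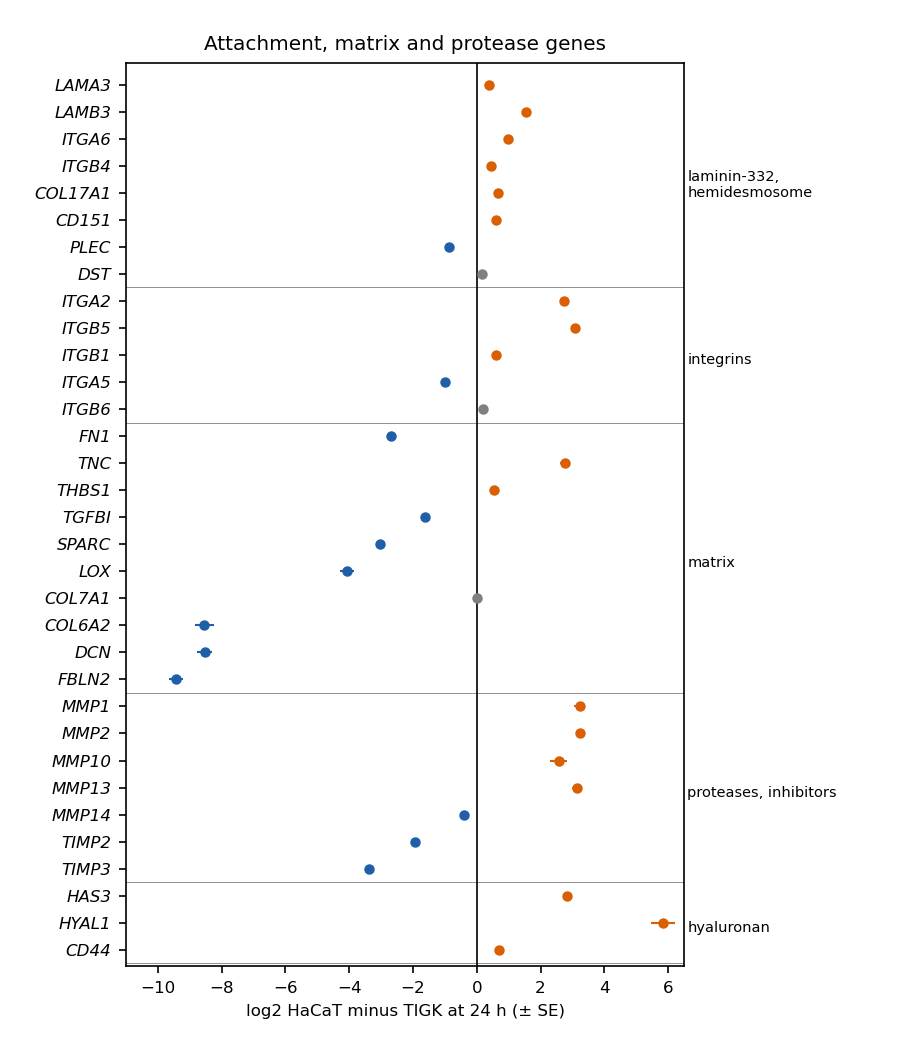
Log2 difference HaCaT minus TIGK at 24 h with its standard error for 33 genes of attachment, matrix, integrins, proteases and hyaluronan. Points right of 0 are higher in HaCaT, grey points did not pass the test, and the lowest are FBLN2 at -9.43 and DCN at -8.54, while the laminin and hemidesmosome genes run from PLEC at -0.88 to LAMB3 at 1.56.

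Genes of TGF-beta, BMP and activin signalling, ligands, binding proteins and SMADs among them, leaned to HaCaT, with 14 of 23 tested genes higher and 4 lower. BMP2 stood at 215, 204 and 228 CPM in HaCaT and 14.4, 15.5 and 9.78 in TIGK, 16.2-fold higher, and FST, which binds activin, was 17.2-fold higher. The inhibitory SMAD6 and SMAD7 were 5.41-fold and 4.81-fold higher, and the activin chain INHBA 2.52-fold higher after a shift of 1.84 since 0 h. Over the list, 4 differences had moved toward HaCaT and 6 toward TIGK, or 5 and 4 without library C of TIGK at 0 h, and the median went from 0.74 to 0.50. TGFB1 was 1.28-fold lower. Of 12 YAP and TAZ genes, 8 were higher and 4 lower, with the coactivator YAP1 1.68-fold lower and its relative WWTR1 2.13-fold higher. Among the factors of the epithelial to mesenchymal switch, 8 of 12 were lower in HaCaT and 2 higher. TWIST1 stood at 8.26, 8.18 and 6.59 CPM in HaCaT and 68.95, 62.6 and 66.3 in TIGK, 8.58-fold lower, while SNAI2 was 1.34-fold higher. ESRP1 and ESRP2, splicing factors that keep the epithelial state, were 1.22-fold and 1.38-fold lower in HaCaT, so members with opposite roles lay on the same side.

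Keratins differed between the lines in both directions. The basal and wound-activated keratins had 6 of 8 members lower in HaCaT and 2 higher. KRT5, the basal type II keratin, stood at 18310, 17530 and 18780 CPM in HaCaT and 22770, 22060 and 24020 in TIGK, 1.26-fold lower. Its partner KRT14 was 1.24-fold higher and KRT15 2.46-fold higher. Limma on log2(FPKM + 0.1) did not call KRT5 or KRT14 (adjusted p = 0.0506 and 0.0754). Limma on log2(FPKM + 1) did not call KRT14 either (adjusted p = 0.0501). The wound keratins KRT16 and KRT17 were 1.55-fold and 1.48-fold lower, KRT6A 1.34-fold and KRT6B 4.63-fold, with the KRT6 copies similar enough for reads to be shared. KRT1 (chromosome 12, 52674736 to 52680407), the first keratin of skin's spinous layer, stood at 2336, 2198 and 3070 and 106, 111 and 164 CPM, 19.98-fold higher, whereas its partner KRT10 did not pass the test (log2 -0.51, adjusted p = 0.118) but did without HaCaT library C (log2 -0.75, adjusted p = 0.0423), without library C of TIGK at 0 h and 6 h (0.0346), with the 24 h libraries alone (0.00576) and without the filter on low counts (6.455e-10). KRT13, a mucosal keratin, was 4.84-fold lower at 182 ± 10.5 against 880.1 ± 108 CPM, but its mucosal partner KRT4 was 266-fold higher in HaCaT at 90.2 ± 15.8 against 0.335 ± 0.208. KRT3, known from the cornea, stood at 86.5 ± 21.3 CPM in HaCaT and KRT7, a simple-epithelial keratin, at 556 ± 29.03 CPM, while their 8 and 9 reads over the 3 TIGK libraries are too few for a fold. The other simple keratins, KRT8, KRT18 and KRT19, were 1.76-fold, 1.48-fold and 3.51-fold lower.

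Of 35 tested cornified-envelope and barrier genes of 38, 20 were higher in HaCaT and 5 lower, with a median of 1.24 that had been 1.43 at 0 h. CASP14, the protease that processes filaggrin, stood at 150, 152 and 149.5 CPM in HaCaT and 0.7203, 0.588 and 0.957 in TIGK, 198-fold higher, and FLG, filaggrin itself, at 47.6, 53.1 and 55.3 and 0.786, 0.784 and 0.342 CPM, 80.1-fold higher. SPINK5, an inhibitor of skin proteases, was 28.6-fold and its targets KLK5 and KLK7 were 2.46-fold and 7.17-fold higher. TGM1, the enzyme that cross-links the envelope, was 2.67-fold higher, its difference having grown by 1.00 since 0 h. Lower in HaCaT were DMKN by 2.94-fold, SBSN by 3.71-fold and the mucosal SPRR3 by 3.23-fold. In desmosomes and other junctions 16 of 24 genes were higher and 5 lower. DSG1, the cadherin of upper layers, stood at 129.6, 135 and 176 and 10.4, 12.9 and 12.9 CPM, 12.2-fold higher, DSG4 had 0 counts in TIGK and was at least 123-fold higher, and DSC3 was 3.07-fold higher. The gap junction gene GJB6 was 10.4-fold lower and CDH3 1.79-fold lower, while CDH1, the cadherin of all epithelia, did not pass the test (log2 -0.13, adjusted p = 0.2302) but did without TIGK library C (log2 -0.22, adjusted p = 0.0421).

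Transcription factors of stratified epithelium were divided, 10 of 26 being higher and 11 lower. PITX1, a factor of the oral region, was 4.96-fold lower in HaCaT, PAX9 2.59-fold and SOX2 5.08-fold. OVOL1, which pushes keratinocytes to differentiate, was 3.01-fold higher and TP63, the master factor of stratified epithelium, 1.48-fold. Genes of the HOX clusters, which record body position, had 19 of 30 tested members higher in HaCaT and 4 lower, with HOXA9 at 57.3, 47.9 and 55.7 CPM in HaCaT and 1.38, 0.718 and 1.64 in TIGK. The line difference of HOX genes changed since 0 h for 1 member, HOXC12, and for 3 members without library C of TIGK at 0 h and 6 h.

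Genes of lipid synthesis were mostly higher in HaCaT. Of 31 genes of cholesterol and fatty acid synthesis, 18 were higher and 6 lower, and the difference had moved toward HaCaT for 20 and toward TIGK for 0. SCD (chromosome 10, 100347124 to 100364834), which puts the double bond into fatty acids, stood at 9374, 9942 and 9155 CPM in HaCaT and 3715, 3525 and 3185 in TIGK, 2.73-fold higher, and FASN was 1.85-fold higher. The sterol regulator SREBF1 was 3.35-fold higher. SQLE and MSMO1, enzymes of sterol synthesis, were 1.54-fold and 1.41-fold lower. PLIN2, a coat protein of lipid droplets, stood at 33.3, 27.6 and 35.8 CPM in HaCaT and had 0 counts in the 3 TIGK libraries at 24 h, at least 162-fold higher in HaCaT. ABCA1, the cholesterol exporter, was 9.83-fold lower at 0.7295 ± 0.33 against 7.18 ± 1.43 CPM.

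The glycolysis and hypoxia list had 15 of 28 members higher and 6 lower, and its median went from -0.53 at 0 h to 0.40, with 19 differences moved toward HaCaT and 0 toward TIGK. PFKFB3, which speeds up glycolysis, stood at 354, 374 and 375 CPM in HaCaT and 56.97, 51.4 and 53.4 in TIGK, 6.82-fold higher. The glucose transporter SLC2A1 was 2.17-fold, HK2 1.87-fold, VEGFA 2.38-fold and ADM 2.44-fold higher. EGLN3, an oxygen-sensing hydroxylase induced by hypoxia, turned from lower to higher, at 5.83 ± 2.72 against 27.2 ± 6.396 CPM at 0 h and 25.4 ± 3.64 against 13.03 ± 1.22 at 24 h, a change of 3.17 ± 0.32 (adjusted p = 1.52e-07). The abundant enzymes ENO1 and GAPDH were 1.64-fold and 1.596-fold lower in HaCaT, LDHA did not pass the test (log2 0.04, adjusted p = 0.667), and SLC16A3, which exports lactate, was 3.26-fold lower. Genes of the unfolded protein response were split 5 higher to 6 lower of 17, and targets of NRF2 and the aryl hydrocarbon receptor 9 to 6 of 23. Among the latter, ALDH3A1 was 12.2-fold higher and HMOX1, the haem oxygenase, lower at 0.203 ± 0.247 against 5.17 ± 0.796 CPM, with only 9 reads in HaCaT.

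Mitotic genes were mostly higher in HaCaT and S-phase genes were split. Of 33 mitotic genes, 21 were higher in HaCaT and 4 lower (2 lower without TIGK library B or HaCaT library B), and 12 differences had moved toward TIGK since 0 h and 0 toward HaCaT, the median falling from 0.87 to 0.40. MKI67, the proliferation marker, stood at 448, 461 and 442 CPM in HaCaT and 202, 239 and 170.4 in TIGK, 2.21-fold higher, and ANLN, needed for the cleavage furrow, was 2.06-fold higher. PLK1, the mitotic kinase, was 1.32-fold higher after a shift of -0.76, and CCNB1 did not pass the test at 24 h (log2 0.09, adjusted p = 0.394). S-phase genes were split 11 higher to 10 lower of 30, with 13 moved toward HaCaT and 0 toward TIGK. Without library C of TIGK at 0 h, 9 S-phase genes had moved toward HaCaT and 15 mitotic genes toward TIGK. Without library C of TIGK at 0 h and 6 h these counts were 11 and 17. The helicase subunits MCM4, MCM5 and MCM6 were 2.56-fold, 2.6-fold and 2.76-fold lower in HaCaT, whereas their partner CDC45 was 2.697-fold higher.

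CDKN2A (chromosome 9, 21967753 to 21995301), the locus of p16 and p14ARF, stood at 60.3, 53.3 and 53.04 CPM in HaCaT and 386, 414 and 505 in TIGK, 7.83-fold lower, and CDKN1C was 29.1-fold lower. TERT, the telomerase subunit with which TIGK was immortalised, stood at 1.72, 2.25 and 2.35 and 11.7, 13.98 and 9.37 CPM, 5.54-fold lower in HaCaT, and the files do not say whether a transgene's reads count toward it. The groups overlapped for neither gene. CDKN1A, the main p53 target that arrests the cycle, lay at the threshold (log2 0.19, adjusted p = 0.06204 with edgeR and 0.046 with DESeq2, and 0.0134 without TIGK library C). Of 22 p53 genes, 6 were higher and 9 lower, MDM2 being 1.84-fold lower, GDF15 53.3-fold lower and PLK2 6.34-fold higher.

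Apart from the lists, 34 genes at 10 CPM or more in TIGK had 0 counts in all 3 HaCaT libraries, and 10 genes showed the reverse. NLRP2, an inflammasome-family protein, stood at 186, 188 and 211 CPM in HaCaT and 0 in TIGK, at least 978-fold higher, and ONECUT3, GALNT5 and HS3ST2 were at least 313-fold, 142-fold and 238-fold higher. Present in TIGK and at 0 in HaCaT were the factor NKX2-5 at 37.1 ± 7.01 CPM and HENMT1, a methylase of small RNAs, at 38.04 ± 2.76 CPM, with HaCaT at least 188-fold and 193-fold lower. The 34 genes include some of chromosome Y, which are not named.

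Differences in the deposited FPKM values, measured per length, were ranked only among called protein-coding genes without overlap of libraries between the lines. Of these, the largest difference in favour of HaCaT was that of SCD (1764 ± 76.1 against 641 ± 51.9 FPKM), followed by KRT1 (1016 ± 188 against 50.4 ± 12.8). SFN, the 14-3-3 protein of epithelia, and SPRR1B, an envelope precursor, followed among nuclear genes at 1093 ± 52.1 against 571 ± 71.6 and 477 ± 61.4 against 78.9 ± 27.1 FPKM. On the TIGK side the largest differences were IFI6 (5.34 ± 1.93 against 1669 ± 309.5 FPKM) and KRT19 (628 ± 31.9 against 2186 ± 316), followed among nuclear genes by KRT5 and ISG15. FTL, the ferritin light chain, was 293 ± 12.2 against 1043 ± 146 and HSPB1, a small heat-shock protein, 857 ± 67.2 against 1682 ± 261 FPKM. The difference of IFI6 was larger than that of the structural keratins KRT19 and KRT5.

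Of the 10734 differences at 24 h, 8895 showed no called change since 0 h, 1239 were called as wider and 600 as narrower or turned. The lines changed places for 217 of the 17409 tested genes, which had a called difference of opposite sign at the 2 times. Of these, 131 had turned higher in HaCaT and 86 lower. Only 15 of the 217 differed by at least 2-fold at both times. TNFAIP2, a target of TNF, went from 9.59 ± 0.693 against 35.6 ± 5.95 CPM to 71.8 ± 3.99 against 37.98 ± 1.07, a change of 2.80. PPFIA4 changed by 3.18 and EDN2, an endothelin, by 2.09. In the other direction IFITM1 went from 34.95 ± 0.645 against 17.1 ± 3.23 CPM to 32.99 ± 3.92 against 138 ± 27.3, a change of -3.10 ± 0.24 (adjusted p = 3.36e-09). IFI16 changed by -1.56 and the kinase STK39 by -1.62. Outside the lists the largest moves toward TIGK included DDX60L, a relative of the RNA sensors, at -2.93 and TYMP, thymidine phosphorylase, at -2.59. Toward HaCaT, fitted changes for ZNF469, HS6ST2 and 4 further genes rest on HaCaT libraries at or near 0 counts and are no measure of size. HS6ST2, a heparan sulfotransferase, had 0 ± 0 CPM in HaCaT and 58.1 ± 3.53 in TIGK at 0 h and 0.107 ± 0.0975 and 44.3 ± 4.31 at 24 h.

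The differences also followed chromosomes. Of 600 tested genes on chromosome 4, 64.5% were lower and 9.33% higher in HaCaT, with a median of -0.86, against 33.1% and 28.6% over all genes. The medians were also low on chromosomes 6 (-0.45) and 19 (-0.38) and high on chromosomes 18 (0.56), 9 (0.47) and 10 (0.32). In 263 windows of 10 Mb with at least 20 tested genes, medians ran from -1.62 to 1.37. On chromosome 9 the window from 30000001 to 40000000 had a median of -0.85 with 65 of 94 genes lower, and the window from 120000001 to 130000000 had 0.78 with 98 of 134 genes higher. On chromosome 18 the first window had -0.74 and the window from 60000001 to 70000000 had 1.37. Chromosome 4 held the same position at 0 h, with a median of -0.78. Copy number was not measured in these files.

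**Figure D5:**
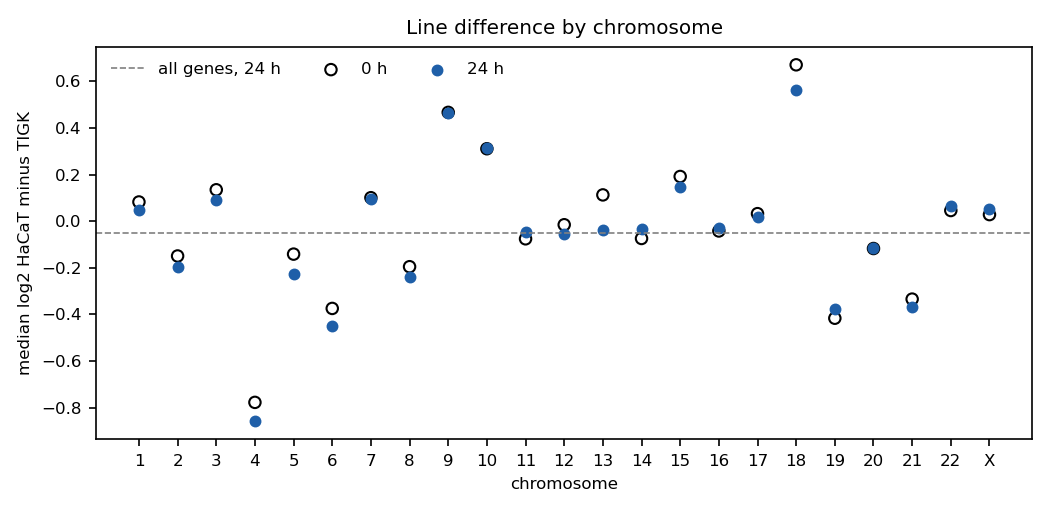
Median log2 difference HaCaT minus TIGK at 24 h (filled circles) and at 0 h (open circles) over the tested genes of each chromosome, with the median of all genes as a dashed line. Chromosome 4 is lowest at both times, chromosome 18 highest, and the filled and open circles of a chromosome lie close together.

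For orientation, the authors' deposited table for this comparison lists 2234 protein-coding genes, 893 higher and 1341 lower in HaCaT, and all of its rows have a log2 difference of at least 1.5 in size. All 2234 had the same direction here and 2230 were called. Over the same size and gene class 2675 genes were called here, of which 2191 are in the authors' deposited table. Its adjusted p is above 0.01 in 31 rows of the authors' deposited table, all of them higher in HaCaT, the largest being 0.1163.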

How the data were processed

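Bulk RNA of 18 libraries, 3 for each of 2 lines at 3 times, was sequenced. The authors deposited a table of read counts per gene and a table of FPKM values for the same genes. The FPKM values equal the counts divided by gene length and by a constant per library. In all 18 libraries that constant was proportional to a median-of-ratios size factor. The tools named in the submitters' processing notes are featureCounts 1.5.0-p3, StringTie 1.3.3b and HISAT2 2.0.5, with the build hg38. Whether strand was used is not given in the sources used here, so overlapping and antisense genes may share reads, as may near-identical copies such as the KRT6, IFITM, HLA and CXCL1 to CXCL3 genes. The authors' deposited table of this comparison holds log2 fold changes and adjusted p-values.

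Columns name line, time and a letter A to C, and 0 columns could not be placed in a group. The letters were not taken as pairs, since deviations of same-letter libraries correlated at -0.183, 0.044 and 0.229. The 58735 genes were filtered with filterByExpr to 17409, scaled by TMM and fitted over all 18 libraries with 6 group means (edgeR 4.0.16, 12 residual degrees of freedom), with Benjamini-Hochberg adjustment over all tested genes at 0.05. The difference of line differences between times used the same fit. The alternatives were DESeq2 1.42.0, limma 3.58.1 on log2(FPKM + 1) and log2(FPKM + 0.1), other scalings, no filter, fewer libraries and a replicate block.

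Genes named are members of 45 hand-written lists and, by rule, the largest differences (12 by fold and 10 by FPKM in each direction) and largest changes since 0 h, some of which are not reported here. The rule took only called protein-coding genes with a symbol that occurs once and without overlap of libraries between the lines. The comparison and the lists were chosen with earlier results of these data known. Standard errors come from the edgeR quasi-likelihood fit and include the scatter between libraries. Folds against 0 counts use a floor of 3 counts per library.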

Additional observations from a re-analysis of the deposited data

Results flagged for a closer look

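Each result here is a line difference that differed between 2 times by the interaction test of edgeR. Counted over all genes, 2354 differences changed from 0 h to 24 h and 3053 from 6 h to 24 h. Among the genes named above, the log2 difference HaCaT minus TIGK moved toward HaCaT from 0 h to 24 h for CXCL8 by 4.12, PPFIA4 by 3.18, EGLN3 by 3.17, IL1A by 3.04, EGR1 by 2.94, TNFAIP2 by 2.80, IL1B by 2.68, TNFAIP3 by 2.42, EDN2 by 2.09, ICAM1 by 2.02, INHBA by 1.84 and TGM1 by 1.00. It moved toward TIGK for IFITM1 (-3.10), ISG15 (-3.03), DDX60L (-2.93), IFI6 (-2.62), TYMP (-2.59), DDX58 (-2.53), IFIT1 (-2.51), STK39 (-1.62), IFI16 (-1.56), LAMA3 (-1.42), ITGB6 (-1.36) and PLK1 (-0.76). DDX60L, EGLN3, IFIT1, IFITM1, PLK1 and TYMP overlap other annotated genes, and the counting is not stated to use strand. Groups of 3 libraries are too small for a test of single outlying libraries.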

How the results depend on the processing

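The count of differing genes at 24 h stayed within 1.5 times its value of 10734 in every alternative run, as did both counts of changed line differences. The count with at least 2-fold difference, 5207, fell to 2325 on log2(FPKM + 1) with limma, where the added 1 shrinks differences of low genes by construction, and was 4860 with 0.1 added. Leaving out 1 library at a time gave 10043 to 10279 genes, 5020 to 5116 of at least 2-fold, 1924 to 2305 changed since 0 h and 2507 to 3263 changed since 6 h. The column letters did not pair the libraries, and with the letter as a replicate block the 4 counts were 10766, 5191, 2376 and 3083. No named gene reversed. Of 211 named genes, 6 lost their call in at least 1 alternative and 5 gained it. Of 90 list counts, 12 moved by more than 1.5 times, each 5 or fewer before the change of setting. Depth limits genes at or near 0 counts, whose fitted values depend on the prior count.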

Other observations

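Among groups not described above, cytosolic ribosomal proteins had 19 of 39 genes lower in HaCaT and 2 higher, with a median of -0.33, and the line difference of none of them was called as changed since 0 h, or of 1 without library C of TIGK at 0 h. RPL8 was 1.68-fold lower at 1004 ± 52.5 against 1690 ± 247 CPM and RPS16 2.04-fold lower, whereas RPL7A was 1.37-fold higher. Without TIGK library C, 5 were higher, and without TIGK library A or B or HaCaT library A or C, 1 was. Of 14 tested antimicrobial and S100 genes of 22, 3 were higher and 5 lower. S100A9 and S100A8, the subunits of calprotectin, were 15.9-fold and 3.14-fold lower in HaCaT, at 1.204 ± 0.878 against 19.5 ± 5.56 and 1.83 ± 0.477 against 5.78 ± 3.23 CPM.

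WNT and ephrin genes were split 12 higher to 12 lower of 30. WNT6 stood at 8.01, 4.84 and 5.74 CPM in HaCaT and 115, 109.8 and 126 in TIGK, 18.8-fold lower, WNT9A was 5.05-fold higher, and the kinase-dead receptor EPHB6 14.9-fold higher. The groups did not overlap for these genes. Of 17 FOXO and quiescence genes, 5 were higher and 7 lower, IRS2, an adaptor of the insulin receptor, being 3.03-fold lower and TSC22D3, a glucocorticoid target, 2.65-fold higher. Outside protein-coding genes, 222 of 779 tested lincRNA genes were higher in HaCaT and 162 lower, and 225 of 997 antisense genes were higher and 151 lower. Of 13959 protein-coding genes, 4224 were higher and 5107 lower. Over all tested genes 28.6% were higher and 33.1% lower. Neither lincRNA nor antisense genes exceeded that share higher, and both fell below that share lower.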
